A study of Mus musculus with 2 samples.

Results

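Interferon-high tumour cells were the 400 cells with the most RNA of Ifit1, Ifit3, Isg15 and Rsad2 among 4877 cells that passed a tumour cell filter. The matrix held 15288 cell barcodes in all. The filter capped a few division genes and 1 gland gene. Passing cells could thus still carry S phase RNA (up to 58.5 CP10K in interferon-high knockout cells, in counts per 10000 UMIs) or gland RNA. A cell passed the filter with at least 5000 UMIs (unique molecular identifiers, each standing for 1 captured RNA molecule), at most 20% mitochondrial UMIs and no UMI of the leukocyte gene Ptprc. It also had at least 5 counts per 10000 UMIs (CP10K) of the epithelial genes Epcam, Krt8 and Krt18 together. The gland gene Wfdc18 had to stay below 20 CP10K, and the division genes Top2a, Mki67 and Cenpf together below 5 CP10K. These steps left 3120 of 8038 control barcodes and 1757 of 7250 knockout barcodes. The sum of the 4 interferon-induced genes then ranked the cells of both libraries on a common scale, so every difference in those genes between interferon-high and other cells is how the cells were chosen and not a finding.

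The series concerns how Kindlin-2 bears on immune evasion by breast tumours. Control cells of the mouse mammary carcinoma line 4T1 carried a control sgRNA (single guide RNA), and the other 4T1 cells were a Kindlin-2 knockout (K2-KO). Both were grown in female BALB/c hosts (spelled BLB/c in the labels) as mammary fat pad tumours, which were excised at 150 mm3. After 45 min of collagenase digestion, live cells were sorted by the presence or absence of mCherry, and 1 library was made per group with the 10x Genomics 3' kit. The labels give neither the number of tumours pooled, nor the clones behind the knockout, nor the proportions in which the sorted fractions were loaded.

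The libraries held 2.14e+08 control and 1.81e+08 knockout UMIs. They shared 13 barcode sequences, and 1 interferon-high cell carried such a barcode. Fermt2, the gene for Kindlin-2 (mm10, chromosome 14, 45458795 to 45530118, minus strand), stood at 35.8 counts per 1000000 UMIs (CPM) in control and 13.3 CPM in knockout interferon-high cells, a log2 ratio of -1.43 (95% counting interval -1.76 to -1.10). In the other tumour cells it stood at 42.1 and 17.3 CPM. With 1 library per group there is no replicate error and no test. All intervals cover counting error only, and a difference between the libraries cannot be told apart from a difference between tumours or library preparations.

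Type I interferons bind the receptor pair IFNAR1 and IFNAR2 on nearly all cells, and the kinases JAK1 and TYK2 then activate transcription factors, among them STAT2, which joins IRF9 in the ISGF3 complex. ISGF3 binds the interferon-stimulated response element in promoters and turns on antiviral genes, among them the 4 used here. Interferon gamma signals through its own receptor to factors that bind the gamma-activated site and induce guanylate-binding proteins, PD-L1 and antigen presentation genes. In tumours both pathways can draw in lymphocytes and can also raise ligands that restrain them.

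Knockout tumour cells were interferon-high more often than control tumour cells. The rule picked 159 of 3120 control cells (5.10%, exact Clopper-Pearson 95% interval 4.35 to 5.93%) and 241 of 1757 knockout cells (13.7%, 12.1 to 15.4%). The knockout share was 2.69-fold higher (log2 ratio 1.43, 1.13 to 1.73). Interferon-high cells had a somewhat lower median depth: 31882 UMIs against 34096 in other control cells, and 34680 against 37748.5 in the knockout. In 3 equal bands of each library by depth, the interferon-high share was 5.00, 5.48 and 4.81% in the control from shallow to deep. In the knockout it fell from 16.2 to 13.5 and 11.5%, and was above the control share in each band. The part of depth in these shares was not tested.

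The score ran on without a gap at the cut. Its median over all passing cells was 0.564 CP10K in the control and 1.34 CP10K in the knockout, and 25.7% and 14.3% of cells had no UMI of the 4 genes. The last cell inside, a knockout cell at rank 400, scored 6.81 CP10K, and the first outside, also from the knockout, scored 6.80. Within 0.5 CP10K of the cut lay 63 cells, so the cut falls inside a continuous range of the score. No clustering was done, and a sum of 4 genes cannot decide whether the cells form a separate type. Inside the set the score reached 96.9 CP10K in the knockout and 96.1 in the control, with medians of 11.3 in both.

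**Figure D1:**
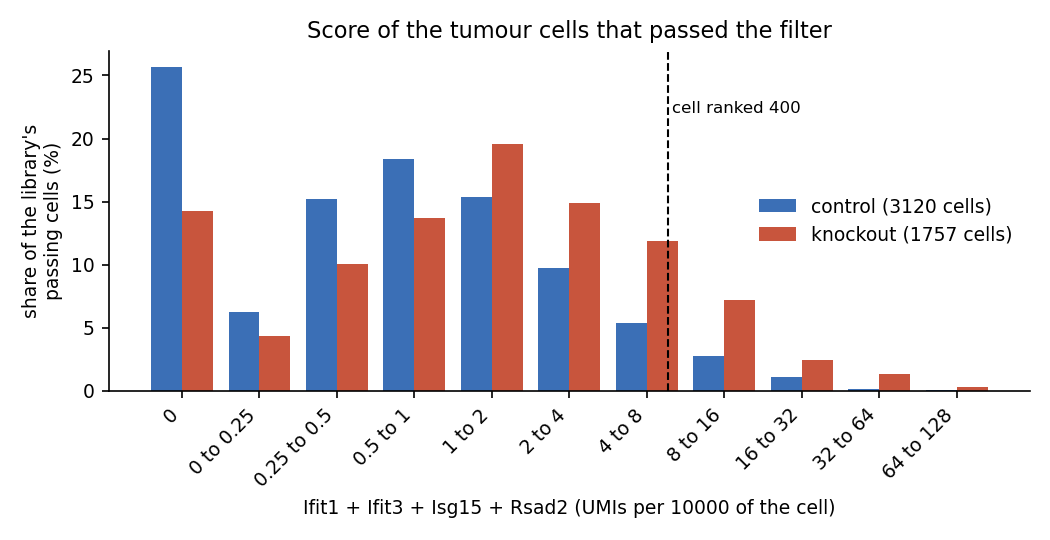
Percentage of passing tumour cells of each library (y axis) by the summed level of Ifit1, Ifit3, Isg15 and Rsad2 in CP10K, in bins (x axis), for 3120 control and 1757 knockout cells; the dashed line marks the score of rank 400. The control has the larger percentage of cells at 0, the knockout the larger one above the cut, and neither has a gap there.

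The 4 rule genes encode antiviral proteins. Isg15 is a ubiquitin-like protein that is joined to other proteins. Ifit1 binds foreign RNA, Ifit3 is of the same protein family, and Rsad2 (viperin) makes a chain-terminating nucleotide. Isg15 supplied most of the score, with 65.2% of the rule genes' UMIs in control and 62.6% in knockout interferon-high cells. All 4 genes were detected in 35.2% and 36.1% of interferon-high cells and at least 3 in 83.6% and 85.9%. Rsad2 was found in 40.9% and 37.3% of them. Isg15 alone made up over 90% of the score in 23 control and 34 knockout cells. The cells were also ranked by 3 of the genes and the level of the other was read. The 4 genes were picked together for the rule and most cells stayed the same, so these levels are a description. Ifit3 then stood at 143 CPM in interferon-high and 3.81 CPM in other control cells, and at 268 and 13.7 CPM in the knockout. Rsad2, read the same way, was 26.4-fold and 23.1-fold higher, Ifit1 19.7-fold and 11.8-fold, and Isg15 8.69-fold and 6.12-fold, with 297 to 389 of the 400 cells shared with the full ranking. Reads can be split between Ifit3 and its near-identical neighbour Ifit3b, so the levels of that pair are uncertain.

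The promoters of the 4 rule genes all hold the interferon-stimulated response element. They are shown with Cmpk2, the top-ranked gene after Ifit3b outside the rule, and Igtp, a GTPase gene, because the 6 differ in which elements they carry. Each line gives the 250 bases before the RefSeq transcript start (GRCm38.p6), 5' to 3' on the gene's strand. Capitals mark matches to GAAANNGAAA or its reverse TTTCNNTTTC (the response element) and to TTCNNNGAA (the gamma-activated site), searched on both strands, where overlapping matches run together.
Isg15: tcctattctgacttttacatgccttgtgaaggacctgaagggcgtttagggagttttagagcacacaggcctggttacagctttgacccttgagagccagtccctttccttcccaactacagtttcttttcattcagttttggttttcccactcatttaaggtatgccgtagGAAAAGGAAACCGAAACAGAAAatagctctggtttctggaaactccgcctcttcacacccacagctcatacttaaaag
Ifit1: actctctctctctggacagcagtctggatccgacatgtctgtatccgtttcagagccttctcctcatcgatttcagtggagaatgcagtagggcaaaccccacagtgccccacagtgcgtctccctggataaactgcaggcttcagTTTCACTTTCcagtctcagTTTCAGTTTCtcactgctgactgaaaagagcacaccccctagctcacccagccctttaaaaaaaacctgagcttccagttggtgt
Ifit3: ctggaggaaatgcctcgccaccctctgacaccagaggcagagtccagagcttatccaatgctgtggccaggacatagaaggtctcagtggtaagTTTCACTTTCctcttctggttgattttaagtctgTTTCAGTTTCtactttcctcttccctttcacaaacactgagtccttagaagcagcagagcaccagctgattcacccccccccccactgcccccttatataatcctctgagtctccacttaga
Rsad2: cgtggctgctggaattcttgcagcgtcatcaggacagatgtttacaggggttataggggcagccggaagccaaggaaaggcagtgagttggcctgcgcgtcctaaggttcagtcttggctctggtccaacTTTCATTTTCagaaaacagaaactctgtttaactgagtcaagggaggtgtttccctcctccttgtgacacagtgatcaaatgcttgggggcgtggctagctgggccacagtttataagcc
Cmpk2: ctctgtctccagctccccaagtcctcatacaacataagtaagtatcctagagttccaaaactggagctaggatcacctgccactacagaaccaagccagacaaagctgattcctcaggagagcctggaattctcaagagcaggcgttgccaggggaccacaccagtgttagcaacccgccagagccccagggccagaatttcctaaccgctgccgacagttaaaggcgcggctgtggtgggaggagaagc
Igtp: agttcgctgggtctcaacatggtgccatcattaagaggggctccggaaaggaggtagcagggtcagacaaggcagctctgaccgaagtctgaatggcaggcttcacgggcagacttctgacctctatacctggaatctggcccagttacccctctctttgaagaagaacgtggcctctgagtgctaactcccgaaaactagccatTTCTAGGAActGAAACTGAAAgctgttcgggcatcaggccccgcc
The printed windows lie, in that order, at chr4:156200819-156201068 (minus strand), chr19:34640639-34640888 (plus), chr19:34583279-34583528 (plus), chr12:26456453-26456702 (minus), chr12:26468965-26469214 (plus) and chr11:58199306-58199555 (plus), and the transcribed gene starts at the 3' end of each. Isg15 has 3 overlapping response elements between 78 and 57 bases before the start, Ifit1 has 2 (104 to 95 and 85 to 76), Ifit3 has 2 (156 to 147 and 122 to 113) and Rsad2 has 1 (120 to 111). Cmpk2, which lies next to Rsad2 on chromosome 12, had no match in its window. Igtp has a response element at 34 to 25 and a gamma-activated site at 45 to 37 bases before the start. A match describes these letters and shows no binding.

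Outside the rule genes, 187 of 11729 genes were higher in interferon-high than in other tumour cells in both libraries (1.59%), and 122 were lower in both (1.04%). A gene counted as higher or lower when it differed at least 1.5-fold, its 95% counting interval left out equal levels and it had at least 100 UMIs in the cells compared. By the same size rule 2.74% of 12351 genes were higher and 3.29% lower in the control, and 2.52% of 11866 were higher and 3.1% lower in the knockout. The 187 were 60.3% of the control's and 64.7% of the knockout's higher genes among those tested in both. Of them, 62 were in the antiviral list and 81 in no list. The cells were chosen on genes of this response, so these counts describe what went with the score. The shares of 1.59% higher and 1.04% lower in both are the background for the list counts below.

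The 20 genes farthest above the other cells were nearly all known interferon-induced genes. Ifit3b stood at 74.9 CPM in interferon-high and 1.94 CPM in other control cells, and at 114 and 5.27 CPM in the knockout (log2 ratios 5.27 and 4.44). It can exchange reads with the rule gene Ifit3, so its ratio may partly carry the ranking itself. Cmpk2, a mitochondrial nucleotide kinase, stood at 43.8 and 2.03 CPM in the control and at 33.0 and 2.29 CPM in the knockout (4.43 and 3.85). Oasl1, an oligoadenylate synthetase-like protein, stood at 65.4 and 5.33 CPM and at 79.8 and 5.96 CPM (3.62 and 3.74). These genes were close to absent from the other cells and their interferon-high levels were far above them in each library. Ifit2, Ifi44, Oas3, Phf11d, Ifi44l, Oasl2, Trim30a, Oas2, Oas1a and Tor3a followed with log2 ratios from 1.75 (Tor3a) to 3.38 (Ifit2) in the control and from 1.69 (Tor3a) to 2.64 (Ifit2) in the knockout. Usp18, the enzyme that removes ISG15 and dampens receptor signalling, stood at 98.2 and 17.98 CPM in the control and 105 and 16.9 CPM in the knockout. The RNA sensor genes Dhx58 and Ifih1, the transcription factor gene Irf7, the chemokine genes Ccl5 and Cxcl10 and Csprs complete the 20. Oas1a shares sequence with Oas1g and can exchange reads with it. Leaving out the cell with the most UMIs of the gene from each library left all 20 higher in both libraries, the lowest log2 ratio being 1.47 (Ccl5 in the knockout).

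**Figure D2:**
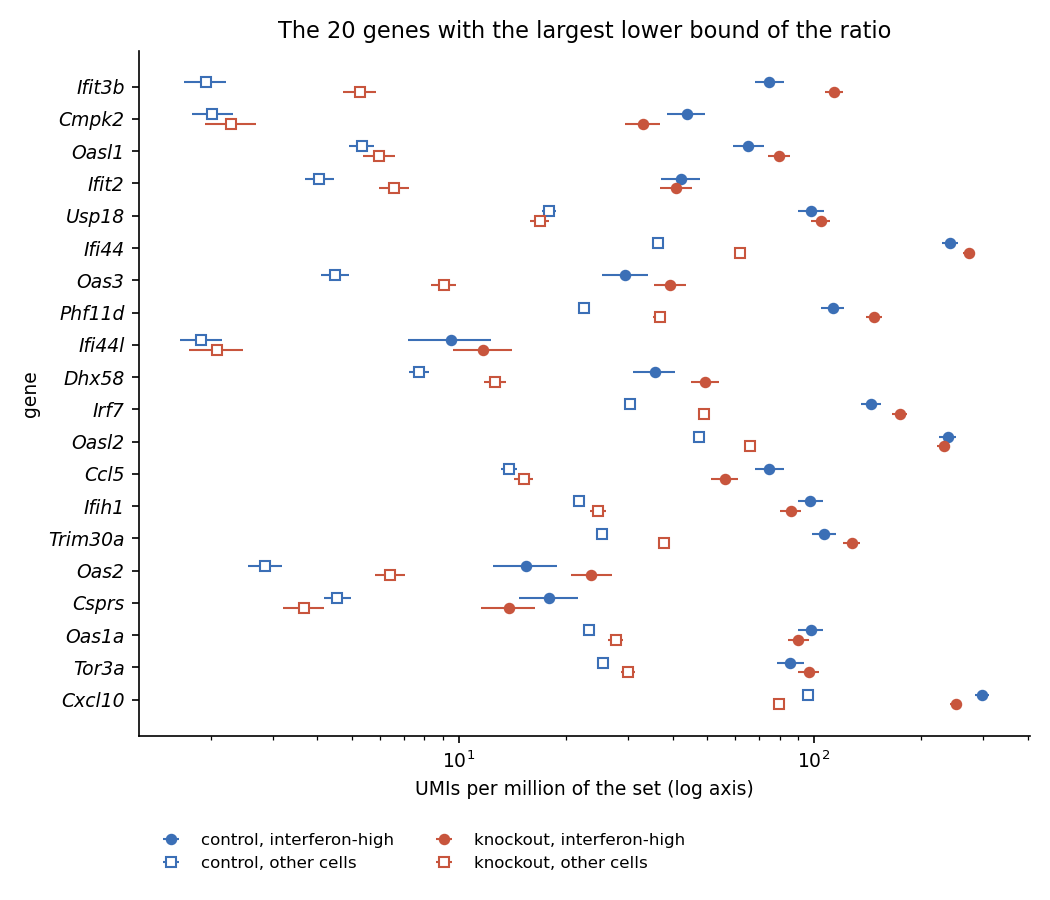
Summed level in CPM (log x axis) of the 20 higher genes (y axis) in interferon-high (filled) and other (open) tumour cells of each library, with bars for the exact 95% Poisson counting interval. The filled points sit to the right of the open ones in both libraries for every gene, as Cmpk2 does at 43.8 against 2.03 CPM in the control. Ifit3b can exchange reads with the rule gene Ifit3.

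The antiviral list, which leaves out the rule genes, moved almost as a whole. Of its 70 members tested in the control, 63 were higher and 0 lower, with a median log2 ratio of 1.34. Of 71 in the knockout, 64 were higher and 1, Ifitm1, was lower, with a median of 1.11. Over all genes the medians were -0.051 and -0.050. Ifit3b, which can exchange reads with the rule gene Ifit3, was highest in both libraries. Ifitm1 was lowest, at 2.66 and 2.998 CPM in the control and at 3.27 and 5.14 CPM in the knockout. Ifitm2, Ifi27, Plscr1, Irf9 and Cd47, which are on the list, were higher by less than 1.5-fold or not at all in both libraries. The abundant membrane proteins Bst2 (tetherin), which holds budding virus at the cell surface, and Ifitm3, which blocks viral entry, stood at 997 and 379 CPM and at 3115 and 1703 CPM in the control. In the knockout they stood at 1055 and 512 CPM and at 3225 and 1961 CPM. Ifitm3 was thus high in every set, and its ratio (0.87 and 0.72) was smaller than that of genes nearly silent in the other cells.

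Per cell, the summed antiviral list ranged from 48.4 to 266 CP10K in interferon-high control cells (median 119) and from 7.90 to 201 CP10K in the others (median 55.3). In the knockout it ranged from 47.1 to 337 CP10K (median 128) and from 6.38 to 193 CP10K (median 70.8). The ranges overlap in each library, while the medians lie far apart. With each cell thinned to 5000 UMIs, a median of 27 antiviral genes was detected in interferon-high cells of both libraries, against 14 in other control and 17 in other knockout cells.

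**Figure D3:**
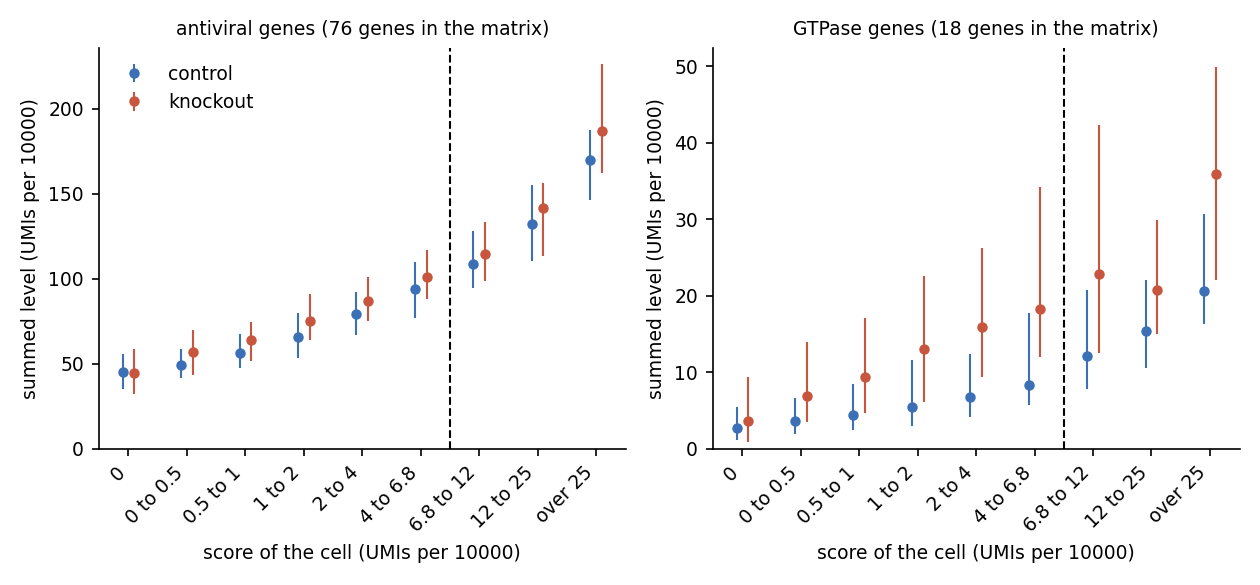
Median summed level per cell in CP10K (y axis) of the antiviral list and the GTPase list by bin of the 4-gene score (x axis), for each library, with bars from the lower to the upper quartile over cells and a dashed line at the cut. The antiviral sum climbs from 44.8 to 170 CP10K in the control and from 44.5 to 187 CP10K in the knockout with no step at the cut.

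Across score bins the antiviral sum rose steadily. Cells with no UMI of the rule genes had medians of 44.8 CP10K in the control and 44.5 CP10K in the knockout, and cells scoring over 25 CP10K had 170 and 187 CP10K. The bins on either side of the cut had 94.1 and 108 CP10K in the control and 101 and 115 CP10K in the knockout. Spearman's rho between the score and the antiviral sum was 0.63 over 3120 control cells and 0.75 over 1757 knockout cells, cells that share a library and its free RNA. The summed guanylate-binding and immunity-related GTPases had medians of 2.7001 and 3.58 CP10K in cells with no UMI of the rule genes and of 8.36 and 18.3 CP10K in cells just under the cut.

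The conjugation pathway of ISG15 was higher throughout. All 5 members were higher in both libraries: Uba7, the activating enzyme, Ube2l6, the carrier, Herc6, the mouse ligase, Trim25 and Usp18. Ube2l6 stood at 79.0 and 22.4 CPM in the control and at 91.7 and 37.9 CPM in the knockout. The log2 ratios ran from 0.94 (Uba7) to 2.45 (Usp18) in the control and from 0.84 (Trim25) to 2.63 (Usp18) in the knockout.

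Receptor genes other than Ifnlr1 did not pass the size rule, whereas several induced transcription factors did. Of 25 receptor and signalling genes 6 were higher in both libraries (beside 1.59% of all genes), including Usp18, Irf7, Irf5, Stat2 and Socs1. Irf7, the factor that amplifies type I interferon, stood at 145 and 30.4 CPM in the control and at 175 and 49.0 CPM in the knockout (log2 ratios 2.25 and 1.83). Per cell its median was 1.18 CP10K in interferon-high and 0 in other control cells, and 1.57 and 0.282 CP10K in the knockout. Stat2 stood at 87.4 and 30.2 CPM in the control and at 122 and 58.5 CPM in the knockout. Irf5 and Socs1, a feedback inhibitor of JAK kinases, had log2 ratios of 0.96 and 0.79 in the control and of 1.43 and 0.82 in the knockout. The receptor subunit genes lay near equal levels, with log2 ratios in the control and the knockout of 0.10 and -0.04 for Ifnar1, -0.16 and 0.03 for Ifnar2, -0.13 and -0.12 for Ifngr1, -0.23 and -0.14 for Ifngr2 and 0.14 and -0.14 for Il10rb. Ifnlr1, the receptor for type III interferon, was lower in the control (1.498 and 3.41 CPM) and at 2.32 and 3.01 CPM in the knockout. Jak1, Jak2, Tyk2, Stat3, Irf1, Irf2, Irf3, Irf8, Irf9, Socs3, Ptpn2 and Pias1 were not past the 1.5-fold rule in either library, and their log2 ratios lay between -0.29 (Socs3 in the control) and 0.52 (Irf9 in the knockout).

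Of the genes that sense foreign or misplaced nucleic acid or act with the sensors, some were higher and others were not. In both libraries 9 of 18 tested members were higher, beside 1.59% of all genes. They were the RNA helicases Dhx58, Ifih1 (MDA5) and Ddx58 (RIG-I), the kinase Eif2ak2 (PKR), Zbp1, Tlr3, Ifi204, Adar and Samhd1. Ifih1 stood at 97.7 and 21.8 CPM in the control and at 86.0 and 24.6 CPM in the knockout. Cgas, the DNA sensor, was higher in the knockout only by the size rule (14.2 and 9.23 CPM, against 10.2 and 9.04 CPM in the control), and that difference between libraries was not tested. Its adaptor Tmem173 (STING) had log2 ratios of -0.09 and -0.03, Mavs 0.08 and 0.19, Tbk1 -0.19 and 0.14, and Ikbke, lowest of the list in the control, -0.40 and 0.12. The adaptor and kinase genes with ratios given here thus passed the size rule in neither library.

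Interferon RNA itself was scarce. No Ifna1, Ifna2, Ifna4, Ifna5, Ifna6, Ifna7, Ifna9, Ifna11, Ifna12, Ifna13, Ifna14, Ifna15, Ifna16, Ifnab, Ifnz, Ifnl2 or Ifnl3 UMI was found in any passing cell. Ifnb1, the gene of interferon beta, had 13 UMIs in 4 control cells and 0 UMIs in the knockout. The control cell ranked 2 of the 400 held 10 of them, together with 178 Cxcl10 and 47 Ccl5 UMIs and no C1qa or Lyz2 UMI, and the cells ranked 8 and 50 held 1 each. The remaining Ifnb1 UMI was in a control cell ranked 3736. In interferon-high cells Ifng had 1 UMI in the control and 3 in the knockout, Ifnk 0 and 4, and Ifne 0 in both. The counts are too low for any statement on differences between the libraries.

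All 18 guanylate-binding and immunity-related GTPases were higher in both libraries. These proteins attack the vacuoles of intracellular pathogens and respond most to interferon gamma. The median log2 ratio was 1.24 in the control and 0.92 in the knockout. Gbp3 had the highest ratio in both, at 97.9 and 24.6 CPM in the control and 155 and 63.1 CPM in the knockout, and Gbp9 the lowest, at 33.1 and 20.01 CPM and at 48.8 and 32.2 CPM. Igtp, whose promoter carries both elements, stood at 180 and 58.7 CPM and at 249 and 104 CPM. Gbp6 and Gbp10, and Tgtp1 and Tgtp2, are near-identical pairs whose reads may be split.

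Genes classed with interferon gamma were divided. Of 14 tested, 5 were higher in both libraries (beside 1.59% of all genes): Cxcl10, Cd274, Nos2, Cxcl9 and Socs1. Cd274, the gene of PD-L1, a ligand that restrains T cells, stood at 33.1 and 16.4 CPM in the control and at 101 and 49.2 CPM in the knockout, log2 ratios of 1.02 (0.80 to 1.23) and 1.04 (0.93 to 1.14). The order of Cd274 over the 4 sets was knockout interferon-high, knockout other, control interferon-high and control other. Irf1, the primary interferon gamma target, stood at 395 and 365 CPM and at 395 and 333 CPM, and was lowest of the list in the control (log2 ratio 0.11). Icam1 was lowest in the knockout, at 3.903 and 8.93 CPM. Cxcl9 in the control rested on 1 cell, which held 68 of 154 UMIs, and without it the log2 ratio changed from 0.69 to -0.14.

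Most antigen presentation genes had log2 ratios above 0, and a minority passed the size rule in both libraries. All 10 MHC class I genes lay above 0 in both libraries. Of 14 processing genes 13 did in the control and 11 in the knockout. Of 10 MHC class I genes 3, the non-classical H2-T24, H2-T23 and H2-T22, were higher in both libraries, beside 1.59% of all genes. H2-T24 was highest, at 6.66 and 1.04 CPM in the control and at 8.44 and 2.997 CPM in the knockout, and the classical H2-D1 was lowest, at 4994 and 4161 CPM and at 3989 and 3491 CPM. H2-K1 and B2m had log2 ratios of 0.37 and 0.29 in the control and of 0.29 and 0.25 in the knockout. Of 14 processing genes, Tap1, the peptide transporter, and Psmb10, an immunoproteasome subunit, were higher in both. Tap1 stood at 114 and 61.0 CPM and at 150 and 85.9 CPM, and the chaperone Canx was lowest at log2 ratios of -0.06 and -0.09. Of 7 MHC class II genes 0 were higher in both, and Ciita, their master regulator, was higher in the knockout (27.0 and 15.6 CPM).

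Of 19 chemokine and cytokine genes tested in both libraries 5 were higher in both, namely Ccl5, Cxcl10, Tnfsf10 (TRAIL), Il15 and Cxcl9, and Csf2 was lower in both. Over all genes 1.59% were higher and 1.04% lower in both. Ccl5 stood at 74.9 and 13.9 CPM in the control and at 56.0 and 15.2 CPM in the knockout, but a UMI of it was found in 15.1% and 17.8% of interferon-high cells, and the 10 cells with most held 91.8% and 86.1% of its UMIs. Cxcl10, which draws T cells through CXCR3, stood at 297 and 96.3 CPM and at 251 and 79.9 CPM, and a UMI of it was found in 47.8% of interferon-high and 28.3% of other control cells and in 46.9% and 27.8% in the knockout (26.4 and 15.1%, and 32.8 and 13.4%, with each cell thinned to 5000 UMIs), and its 10 leading interferon-high cells held 57.0% and 43.9% of its UMIs. Per cell, Cxcl10 ran from 0 to 48.5 CP10K in interferon-high control cells and from 0 to 30.4 CP10K in the knockout, with a median of 0 in both. Cxcl2 and Cxcl5 were higher in the knockout at log2 ratios of 0.93 and 1.22, which became -0.72 and 0.18 without the cell with most UMIs of each. Tnf was lowest of the list in the control, with no UMI in interferon-high cells and 1.23 CPM in others, and Ccl7 in the knockout (0.95 and 1.69 CPM).

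Checkpoint and cell death genes included members that the interferon response is known to induce. Of 11 checkpoint and immune ligand genes 3 were higher in both libraries (beside 1.59% of all genes): Lgals9 (galectin-9), Cd274 and H2-T23, the ligand of NKG2A. Lgals9 stood at 128 and 53.1 CPM in the control and at 142 and 59.8 CPM in the knockout. The lowest members were Vsir in the control (log2 ratio -0.47) and Cd24a in the knockout (-0.27). Of 16 cell death genes 5 were higher in both (beside the same 1.59%), Xaf1, Zbp1, Tnfsf10, Mlkl, the executor of necroptosis, and Casp4. Xaf1 stood at 167 and 51.1 CPM and at 155 and 58.0 CPM, while Casp1 had log2 ratios of -0.37 and 0.65.

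Lists outside the interferon response showed few differences shared by both libraries. Of the p53, hypoxia, mesenchymal and kindlin and integrin adhesion lists 0 members were higher or lower in both, and of 16 epithelial genes 1 was higher. The first lists named had 10, 14, 10 and 17 members tested in both. Over all genes 1.59% were higher and 1.04% lower in both, so lists this short would often give 0. These counts therefore do not set the lists apart from other genes. Of 14 genes of the response to dissociation 1, Hspa1a, was lower in both. The members with the highest ratios in the control and the knockout were Bbc3 in the p53 list and Ankrd37 in the hypoxia list in both libraries, S100a4 and Zeb1 in the mesenchymal list, Itgb6 in the adhesion list in both, and, in the control, Krt14 in the epithelial list. The lowest were Sesn2 in both, Adm and Vegfa, Fn1 in both, Itgb3 and Fermt2, and Esrp1 and Cldn7. Fermt2 had log2 ratios of -0.24 in the control and -0.38 in the knockout between interferon-high and other cells. Of 2 lists of 4T1 tumour states with 6 members each, the one led by Csf3, Cxcl1 and Ibsp had 0 members higher or lower in both libraries, and of the one led by Lcn2 and Slpi 1, Ltf, was lower in both. Lcn2, the secreted iron-carrier protein lipocalin 2, stood at 825 and 968 CPM in the control and at 443 and 416 CPM in the knockout. The division lists had medians of opposite sign in the libraries. S phase genes had a median of 0.20 in the control (3 of 31 higher, 0 lower) and -0.16 in the knockout (0 higher, 1 lower), and G2 and M phase genes had 0.17 (0 of 16 higher, 1 lower) and -0.68 (0 higher, 10 lower). Over all genes 2.74% were higher and 3.29% lower in the control, and 2.52% and 3.1% in the knockout. Ccnb1 stood at 3.49 and 3.51 CPM in the control and at 2.74 and 5.82 CPM in the knockout. The filter had already removed cells high in Top2a, Mki67 and Cenpf, and that difference between libraries was not tested.

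**Figure D4:**
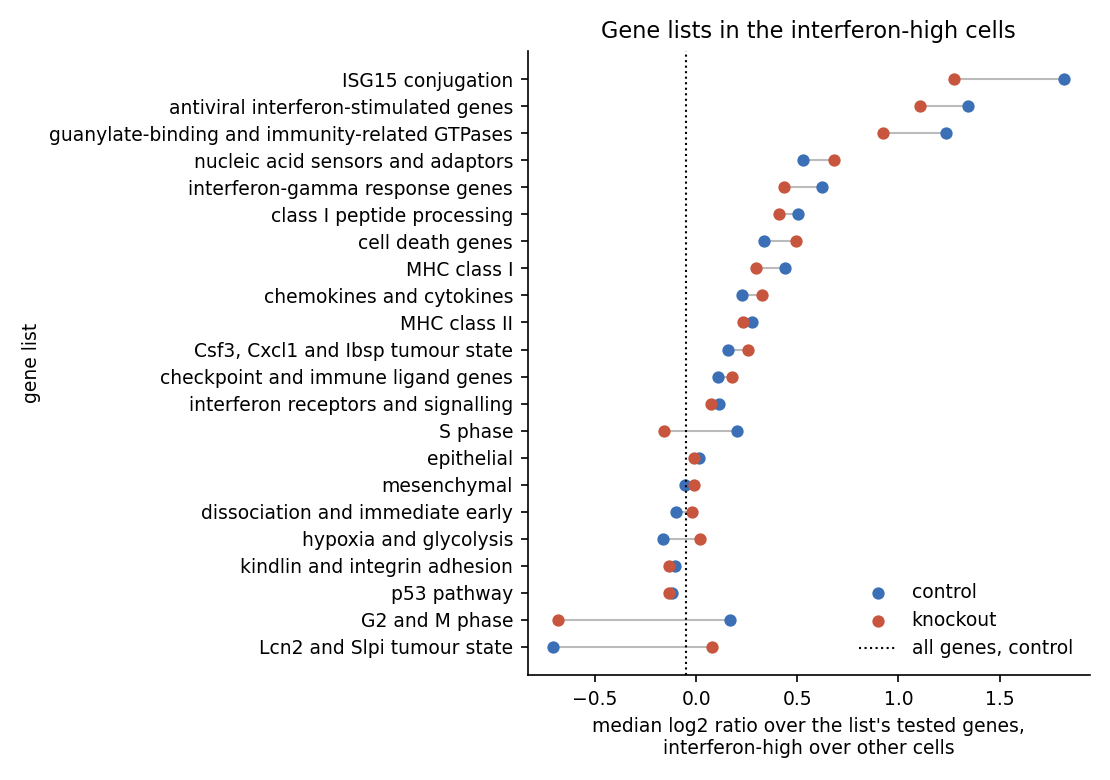
Median log2 ratio of interferon-high over other tumour cells (x axis) for each gene list (y axis), with the control and the knockout as separate points and a dotted line at the median over all genes in the control. The antiviral list, at 1.34 and 1.11, and the GTPases, at 1.24 and 0.92, lie far to the right of the lists outside the interferon response.

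The response element was frequent in promoters of genes that were higher in interferon-high cells. RefSeq gave a 300-base promoter window for 136 of the 187 genes, and 52 of them (38.2%) held a response element match, against 3.84% of 9114 matched genes among those tested in both libraries and 3.99% of 27025 genes in the table. Among higher genes in no list the share was 24.6% (14 of 57), and among genes lower in both libraries 6.02% (5 of 83). Of the GTPases 11 of 12 matched genes held a response element and 7 of 12 a gamma-activated site, the latter against 9.55% of all genes. The antiviral list had 46.8% with a response element (29 of 62). Cmpk2 shows that a large ratio was also found without a match in this window.

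The genes lower in both libraries were led by genes found in few tumour cells, some of them markers of other cell types. The 15 lowest were Ptn, Prlr, Igfbp5, Pcp4, Stc2, Gpx3, Ly6d, Clca3a2, Hspb1, Htr4, Auts2, Ltf, Tmem56, Cd200 and Col3a1, among which Prlr, the prolactin receptor, Ltf, lactoferrin, and Col3a1, a fibroblast collagen, mark gland cells and fibroblasts. Ptn had no UMI in 159 interferon-high control cells and stood at 29.9 CPM in the others, at least 59.9-fold lower against a floor of 3 counts over the set. It was found in 1.01% of the other control cells. RNA of mammary gland or fibroblast genes above a set level was found in 82 of 2961 other control cells (2.77%), 90 of 1516 other knockout cells (5.94%), 0 of 159 interferon-high control cells and 5 of 241 interferon-high knockout cells. With those cells dropped and the ranks of the others kept, a setting chosen after the data were seen, 23 genes were lower and 188 higher, of which 181 were among the 187. Of the 15 named genes, Igfbp5 and Auts2 kept their call. With the top 400 drawn anew from the cells that were left, 16 genes were lower and 191 higher. The control cell ranked 406, just outside the cut, held 222 Ptn, 100 Prlr and 122 Igfbp5 UMIs.

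Summed markers of other cell types were lower in interferon-high than in other cells in most lists. The exceptions were dendritic cell markers in both libraries, and macrophage and neutrophil markers in the knockout. Among interferon-high knockout cells the highest reached 49.6 CP10K of macrophage markers (median 0.139) and 11.3 CP10K of neutrophil markers (median 0). Summed macrophage markers stood at 24.3 and 31.9 CPM in interferon-high and other control cells and at 36.4 and 34.4 CPM in the knockout, and all 11 had a UMI in every set. C1qa, a defining marker, stood at 4.33 and 5.06 CPM and at 4.64 and 4.64 CPM. The 9 T and NK cell markers summed to 1.33 and 1.96 CPM and to 2.64 and 3.31 CPM, with Cd3e, Cd3d, Trbc2, Ncr1 and Klrb1c at 0 in interferon-high control cells and Cd2 and Klrb1c at 0 in the knockout. The 6 dendritic cell markers summed to 0.998 and 0.723 CPM and to 1.37 and 1.23 CPM, with Xcr1 at 0 in both interferon-high sets. With so few UMIs, a marker at 0 does not show absence. The 5 neutrophil markers were at 3.99 and 5.84 CPM in the control and at 6.96 and 3.26 CPM in the knockout, where S100a9 was at 4.01 and 0.867 CPM. Fibroblast markers were at 15.5 and 53.9 CPM and at 22.99 and 64.1 CPM. The list for B and plasmacytoid dendritic cells says little, since 97.5% of passing cells carried Tcf4, and Siglech was at 0 in both interferon-high sets. Scrublet marked 0 control and 1 knockout interferon-high cells as doublets, against 9 and 3 other cells.

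As a check of the label, the antiviral list, which the rule did not read, was higher in these cells in both libraries, though the cells were chosen on genes of the same response. The epithelial genes were part of the filter in both sets, so their levels do not bear on the label: Krt8 stood at 1579 and 1497 CPM in the control and at 1487 and 1489 CPM in the knockout, and Epcam at 385 and 398 CPM and at 380 and 438 CPM.

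Between libraries, few antiviral genes passed the size rule in interferon-high cells cut at the same score. Knockout over control, 6 of 70 members were higher and 4 lower, beside 6.95% of 9112 genes higher and 4.42% lower, and the median log2 ratio was 0.16 beside 0.051 over all genes. With the top 200 cells of each library in place of a common cut, 15 of 70 were higher and the median was 0.33. In the other tumour cells 20 of 73 members were higher and 0 lower, beside 10.8% of 13188 genes higher and 5.57% lower, and the 70 genes above had a median of 0.30. The ratio was smaller in interferon-high cells for 58 of the 70. The common cut sets both libraries to the same range of the score, so this is a description. Trim30d had the highest ratio (4.16 and 11.5 CPM in control and knockout) and Ifi207 the lowest (24.5 and 12.8 CPM).

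The GTPases and Cd274 were apart between the libraries at the same score. Of 18 GTPases 12 were higher in knockout interferon-high cells and 0 lower, beside 6.95% of 9112 genes higher and 4.42% lower. Their median log2 ratio was 0.76, beside 0.051 over all genes. In the other cells it was 0.98, beside 0.080 over all genes. For 16 of 18 GTPases the ratio was smaller in interferon-high cells than in the other cells. Iigp1 stood at 290 CPM in control and 533 CPM in knockout interferon-high cells, and Gbp2 at 201 and 391 CPM. Gbp10 had the highest ratio (14.98 and 31.4 CPM) and Gvin1 the lowest (8.32 and 7.91 CPM). Cd274 had a log2 ratio of 1.61 (1.39 to 1.84), against 1.59 (1.51 to 1.67) in the other cells. Nos2, the inducible nitric oxide synthase, went the other way at 35.9 and 17.0 CPM. MHC class I genes had a median of -0.08, with B2m lowest at 2864 and 2141 CPM and H2-T23 highest at 243 and 336 CPM.

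**Figure D5:**
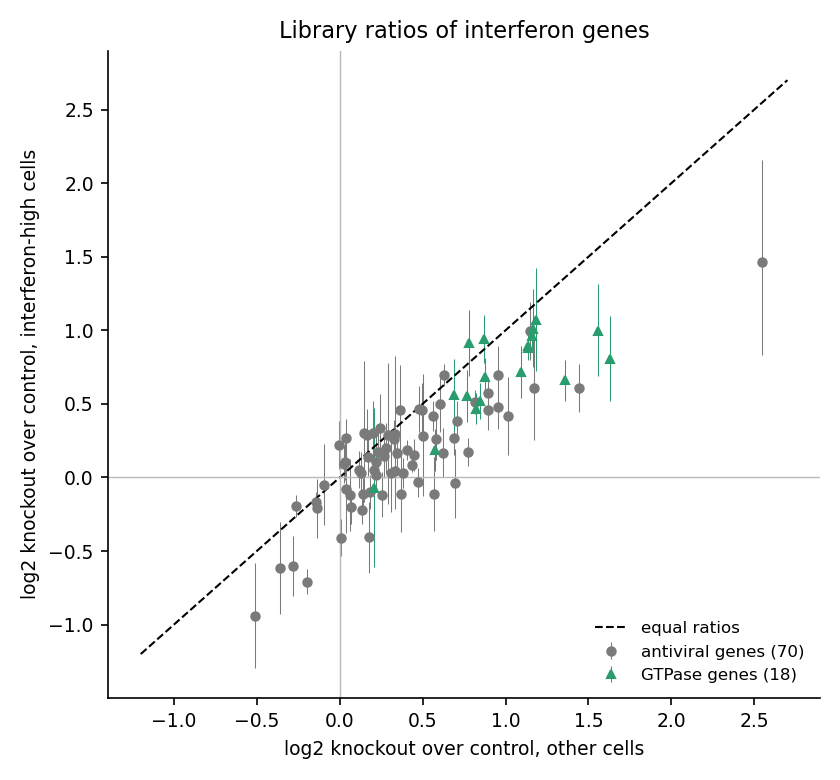
Log2 ratio of knockout over control for the 70 antiviral and 18 GTPase genes tested in both sets, in interferon-high cells (y axis) against the other tumour cells (x axis), with vertical bars for the exact 95% counting interval and a dashed line of equal ratios. Of the antiviral genes 58 lie under the line, and of the GTPases 16.

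Among the genes highest in knockout over control interferon-high cells by the ranking rule were Saa3, Saa1, Msmp, Cyp7b1, Gstt1, Eda, Naaladl2, Plcl1 and Camk4. Cyp7b1, an oxysterol hydroxylase, stood at 0.499 CPM in control and 15.7 CPM in knockout interferon-high cells, and at 0.946 and 12.03 CPM in the others. That difference was thus also present outside the set. Saa1 and Saa3, acute phase proteins, rested on the knockout cell ranked 294, which held 149 of 152 and 262 of 264 UMIs. Msmp had 421 of 756 UMIs in the knockout cell ranked 163. Lowest were Gm17268, Rab6b, Ccl2, Ibsp, Cldn7, Mmp13, Prkch, Sfrp1, Ly6c1 and Rgs16. Ibsp, bone sialoprotein, stood at 438 CPM in control and 23.2 CPM in knockout interferon-high cells and at 312 and 34.5 CPM in the others. Ccl2, the monocyte chemokine, stood at 94.2 and 3.903 CPM, and at 79.9 and 6.48 CPM in the others. Ly6c1, a surface protein that interferon can induce, was also higher in interferon-high than other cells, at 120 and 38.0 CPM in the control and at 16.2 and 9.73 CPM in the knockout.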

How the data were processed

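Single-cell RNA libraries were made with the 10x 3' protocol, per the labels. The authors deposited UMI counts as a matrix of 32285 genes by 15288 called barcodes; the submitters' processing notes name Cell Ranger 2.1.1 and mm10, while the file header names cellranger 6.0.1, and the cell calling is not given in the sources used here. Suffix 1 of a barcode was taken as control and 2 as knockout from the library numbers in the labels, a match that rests on the number alone.

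Counts were summed per library and set and scaled to CPM. Intervals are exact at 95% (Poisson, conditional binomial, Clopper-Pearson). The ratio calculation was checked on simulated Poisson counts. These leave out the clumping of UMIs in single cells, so the check does not show how well the intervals fit these data. Doublets were called with Scrublet (scanpy 1.11.5) and kept. Sums and intervals used scipy 1.17.1 and numpy 2.4.6, tables pandas 2.3.3, and figures matplotlib 3.10.9, under Python 3.11.15. Named genes are the 20 highest and 15 lowest by interval bound in both libraries, the 10 highest and 10 lowest between libraries, Fermt2, the extremes of each list described, and every receptor, signalling and interferon gene; others were picked after their values were seen, and a few named by this rule are not reported here. Rule, mitochondrial, ribosomal, immunoglobulin, T cell receptor, haemoglobin, Xist and Y-linked genes were left out. Members and gene lists were chosen with earlier results of these data known. Promoters came from RefSeq (GRCm38.p6) and gene positions from a GENCODE annotation of mm10. Alternatives were other cell filters, set sizes, scores, gene minimums and scalings.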

Additional observations from a re-analysis of the deposited data

Results flagged for a closer look

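Msmp, a secreted microseminoprotein gene, was lower in interferon-high than other cells in the control (log2 ratio -1.15) and higher in the knockout (1.22). Without the knockout cell with most of its UMIs the latter became 0.05. Saa1 was at least 2.20-fold lower in the control, where interferon-high cells had no UMI, and at least 339-fold higher in the knockout, where 149 of 152 UMIs sat in 1 cell and the other cells had none. These were among 9 of 11729 genes that passed the size rule in opposite directions in the libraries, among them also Il10, G0s2, Tnfaip6, Gm2115, Pclaf and Efcab11. The difference between the libraries was not tested.

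Ifnb1 RNA was found in barcodes outside the passing tumour cells, with 62 UMIs in 14 control barcodes and 56 UMIs in 23 knockout barcodes. A Ptprc UMI was present in 13 and 20 of them.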

How the results depend on the processing

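No paired analysis was possible because each group is 1 library. Of 109 values of the main results under alternatives, 95 were kept, 14 moved and 0 reversed. A gene count was kept within 1.5-fold of the reported count, as 127 beside 187 was, and could not reverse. A ratio was kept inside the counting interval of the reported value. For a list median, that interval was the mean interval of the genes at the middle of the list. The log2 ratio of interferon-high shares ran from 1.18 to 1.52, and 127 to 209 genes were higher in both libraries. The antiviral median in the control was 1.03 with the top 800 cells and 1.02 without cells that carried a UMI of other cell types' markers (Tcf4 aside). In the knockout it was 1.22 with the top 200, 0.97 with the top 800 and 0.95 without those cells. Between libraries it was 0.33 with the top 200 cells of each. The count of lower genes was least stable: 56 with at least 10000 UMIs, 47 with the top 800, 60, 74 and 62 with the score without Ifit3, Isg15 or Rsad2, 64 with the top 200 of each library, 16 with the top 400 drawn anew without cells holding gland or fibroblast RNA and 20 without cells carrying other markers. The last 2 settings were chosen after seeing the data. The planned removal of cells with any such marker gave no value, since Tcf4 in 97.5% of cells left 66. Counts of lower genes that were kept still changed members. With the top 200 cells, 70 of 120 were in the reported set, and with levels averaged per cell 71 of 132. With averaged levels, 4 of the 15 genes named as lower kept their call. With the top 200 cells, 4 of the 10 genes named as higher in the knockout and 7 of the 10 lower kept theirs.

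Among 1752 values of single genes 1451 lay inside the counting interval of the reported ratio, 255 moved outside it and 46 reversed. This count covers only the genes named by interval bound and leaves out ratios that became infinite without 1 cell. List genes such as Cxcl9 and Cxcl2, whose sign changed without 1 cell as given above, are not in it. Within it the reversed values all belong to the genes named as lower, with these log2 ratios in the control unless said otherwise. With at least 10000 UMIs they were Ptn 0.39, Prlr 0.080, Igfbp5 1.24, Hspb1 0.97, Htr4 3.12, Auts2 0.52 and Cd200 0.73. Without Ifit3 in the score they were Ptn 0.39, Prlr 0.042, Igfbp5 1.19, Hspb1 0.93, Htr4 3.12, Auts2 0.46 and Cd200 0.67, and without Rsad2 Ptn 0.40, Prlr 0.051, Igfbp5 1.20, Hspb1 0.94, Htr4 3.13, Auts2 0.47 and Cd200 0.68. With the top 200 of each library they were Ptn 0.055, Igfbp5 0.86, Hspb1 0.60, Htr4 2.79, Auts2 0.13, Ltf 1.19 and Cd200 0.34. With the top 800 they were Igfbp5 0.80, Hspb1 0.041, Htr4 1.90, Ltf 0.28, Cd200 0.13 and Col3a1 1.14. Without Isg15 in the score Auts2 was 2.34 and Ltf 2.78, and on thinned cells Ltf was 1.62. Without gland or fibroblast RNA Ly6d was 0.35, Hspb1 0.46 and Col3a1 0.24, and in the knockout Ptn 1.83 and Tmem56 0.38. Without cells carrying other markers Gpx3 was 3.16, Ltf 4.25 and Col3a1 3.17, and in the knockout Col3a1 0.28. The cause was not tested. The control cell ranked 406, just outside the cut at a score of 6.68 CP10K, held 725 UMIs of the genes named as lower, 222 of them Ptn. Its part in the reversals was not tested. Few UMIs of these genes in the interferon-high cells also limit their ratios.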
